A study of Mus musculus with 9 samples.

Results

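Oxidative phosphorylation genes encode the proteins of respiratory complexes I to V. They were taken here as every row of the deposited table whose symbol began with Nduf followed by a, b, c, s or v and a number, with Uqcr, with Cox4 to Cox8 or with Atp5, or was Sdha, Sdhb, Sdhc or Sdhd. The rule found 80 of the 13223 listed genes: 36 of complex I, 4 of complex II, 7 of complex III, 16 of complex IV and 17 of complex V. Complexes I to IV pass electrons from NADH and succinate to oxygen, and complexes I, III and IV pump protons across the inner mitochondrial membrane as they do so. Complex V, the ATP synthase, lets the protons flow back and makes ATP. Most subunits are encoded in the nucleus, and the remainder come from mitochondrial DNA. Tuft cells are chemosensory epithelial cells that carry the taste channel Trpm5 and release interleukin 25.

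Thymic tuft cells were profiled in 4 libraries from irradiated mice and 5 libraries from untreated mice. The irradiated animals had received a sublethal dose of 425 rad and were killed 3 days later. All were young WT female mice, the untreated ones matched for age, and no allele or agent other than the irradiation is named. RNA with poly(A) was profiled by MARS-seq, in which reads come from transcript 3′ ends. The labels do not say whether the libraries of a group come from different mice, so p-values measure the spread between libraries, which may be technical. In bulk libraries, fewer cells of a type and less RNA per cell cannot be told apart.

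Libraries held 509157 to 939948 counts in the irradiated group and 686082 to 978442 counts in the untreated group. All 12 tuft cell markers were listed, and their sum ran from 9066 to 12324 counts per 1000000 counts of the library (CPM) in irradiated libraries, against 5427 to 11710 CPM in untreated libraries. Other cell types left counts too. Fibroblast and pericyte markers summed to 2727 to 4397 CPM in irradiated libraries and 607 to 2481 CPM in untreated libraries. For these markers the groups did not overlap. Macrophage and dendritic cell markers summed to 783 to 1495 CPM in irradiated libraries and 1210 to 5904 CPM in untreated libraries. Mesothelium markers summed to 2748 to 3982 CPM in irradiated libraries and 1462 to 2243 CPM in untreated libraries, and cell division markers to 4.21 to 30.2 CPM in irradiated libraries and 41.8 to 491 CPM in untreated libraries, in both cases with no overlap between groups. Thymocyte markers reached 1367 CPM in untreated replicate 1, and Ptcra was at 0 in all irradiated libraries. Irradiated replicate 4 stood apart: on the first principal component, which held 35.0% of the variance, it lay at -75.1, and the other 8 libraries lay between -6.12 and 31.8. Fold changes without this library are given beside the values it moved most. The part of these markers in the results below was not tested.

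The genes were abundant, and most varied little among the untreated libraries. Of the 80, 67 averaged at least 100 CPM, 19 averaged at least 500 CPM and 8 averaged under 20 CPM. Among the 76 genes that passed the filter on low counts, the median coefficient of variation was 24.0% over the 4 irradiated libraries and 11.5% over the 5 untreated libraries. Over irradiated replicates 1 to 3 it was 10.7%. For all 8934 tested genes the medians were 29.2% in irradiated libraries and 24.8% in untreated libraries. Among genes of at least 100 CPM, the irradiated median was 21.6% for the 67 oxidative phosphorylation genes and 20.96% for all 2034 genes, and the untreated median was 10.9% for the 67 and 18.1% for all. Over irradiated replicates 1 to 3 these medians were 10.4% for the 67 and 12.5% for all. Ndufb3 varied least among untreated libraries, at 4.31%, and Cox6b2 varied most, at 86.2%. The 4 genes left out by the filter were Atp5g2, Cox4i2, Cox6a2 and Cox8b.

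Summed by complex, the irradiated libraries lay close to the untreated ones for complex I and below them by group mean for the other complexes. Complex I genes summed to 9975 ± 750 CPM in irradiated libraries and 10044 ± 413 CPM in untreated libraries (SD, n = 4 and 5, as in all sums here). Complex II genes summed to 947 ± 77.7 CPM in irradiated libraries and 1110 ± 52.2 CPM in untreated libraries. The complex II sums overlapped through a single library, since irradiated replicate 3 at 1048 CPM exceeded untreated replicate 3 at 1033 CPM. Complex III genes summed to 2425 ± 476 CPM in irradiated libraries and 2731 ± 117 CPM in untreated libraries. Irradiated replicate 4 alone, at 1730 CPM, set the low complex III mean, which was 2657 ± 134 CPM over the other 3 irradiated libraries. Complex IV genes summed to 7546 ± 591 CPM in irradiated libraries and 8006 ± 531 CPM in untreated libraries. Complex V genes summed to 7868 ± 767 CPM in irradiated libraries and 8588 ± 719 CPM in untreated libraries. Groups overlapped in all 5 sums. Untreated replicates 1 and 2 held the highest sums of complexes IV and V, at 8270.3 and 8781 CPM for IV and 9240 and 9374 CPM for V, where the other untreated libraries had 7413 to 7830.1 CPM for IV and 7672 to 8491 CPM for V. The same libraries held the highest sums of macrophage and dendritic cell markers, 4414 and 5904 CPM, where the other untreated libraries had 1210 to 1539 CPM. They also held the highest sums of thymocyte markers, 1367 and 279 CPM, and of cell division markers, 491 and 161 CPM. Their tuft cell marker sums were the lowest, 7323 and 5427 CPM. Fibroblast and pericyte markers did not go this way, with 2481 and 607 CPM. The part of these markers in the complex sums was not tested. The sum over all 80 genes in irradiated libraries was 0.944 times that in untreated libraries, and 0.974 times without irradiated replicate 4. No test was run on these sums.

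**Figure D1:**
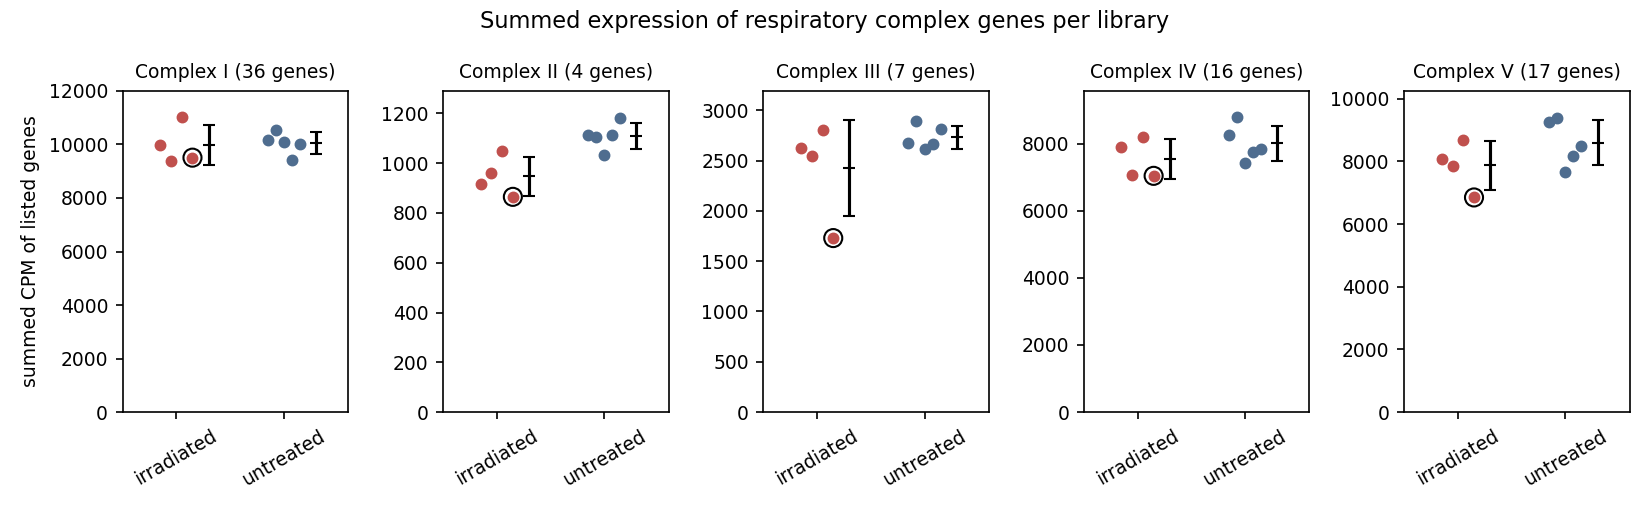
Each panel gives 1 respiratory complex, with the summed CPM of its listed genes on the vertical axis, starting at 0, and 1 point per library; bars give the mean and SD, and a black ring marks irradiated replicate 4. Irradiated and untreated points overlap in every panel, and the ringed point lies far below the rest for complex III, at 1730 CPM.

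No oxidative phosphorylation gene passed the test for a difference between irradiated and untreated tuft cells. With edgeR's quasi-likelihood test and Benjamini-Hochberg adjustment at 0.05, 0 of 76 tested genes were higher and 0 were lower in irradiated libraries, against 1.34% of all tested genes called (1.22% higher and 0.123% lower). At an unadjusted p under 0.05 there were 2 genes, Cox6b2 and Sdha, against 10.6% of all tested genes. The smallest adjusted p was 0.392, for Cox6b2. Leaving out irradiated replicate 4 again gave 0 of 76 called, against 1.31% of all tested genes, and 3 genes with an unadjusted p under 0.05, against 10.8%. In the authors' deposited table, which passed 242 of the 13223 listed genes, 0 of the 80 genes passed. The smallest adjusted p among them in the authors' comparison was 0.331, for Cox6a2, most of whose counts lay in untreated replicate 1.

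A p that misses the threshold does not show equal levels, so the intervals matter. The 95% interval of the fold change lay within 2-fold in both directions for 63 of 76 genes, or 82.9%, against 62.8% of all tested genes. Without irradiated replicate 4 it did so for 73 of 76. The median log2 fold change of irradiated over untreated was -0.07 for the 76 genes and -0.02 for all tested genes, and without irradiated replicate 4 both medians were -0.03. The middle 50% of the 76 genes lay between -0.26 and 0.08, and that of all tested genes between -0.26 and 0.21. Medians by complex were 0.04 for I, -0.25 for II, -0.17 for III, -0.02 for IV and -0.20 for V. Without irradiated replicate 4 they were 0.01, -0.21, -0.10, -0.03 and -0.08 in the same order.

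**Figure D2:**
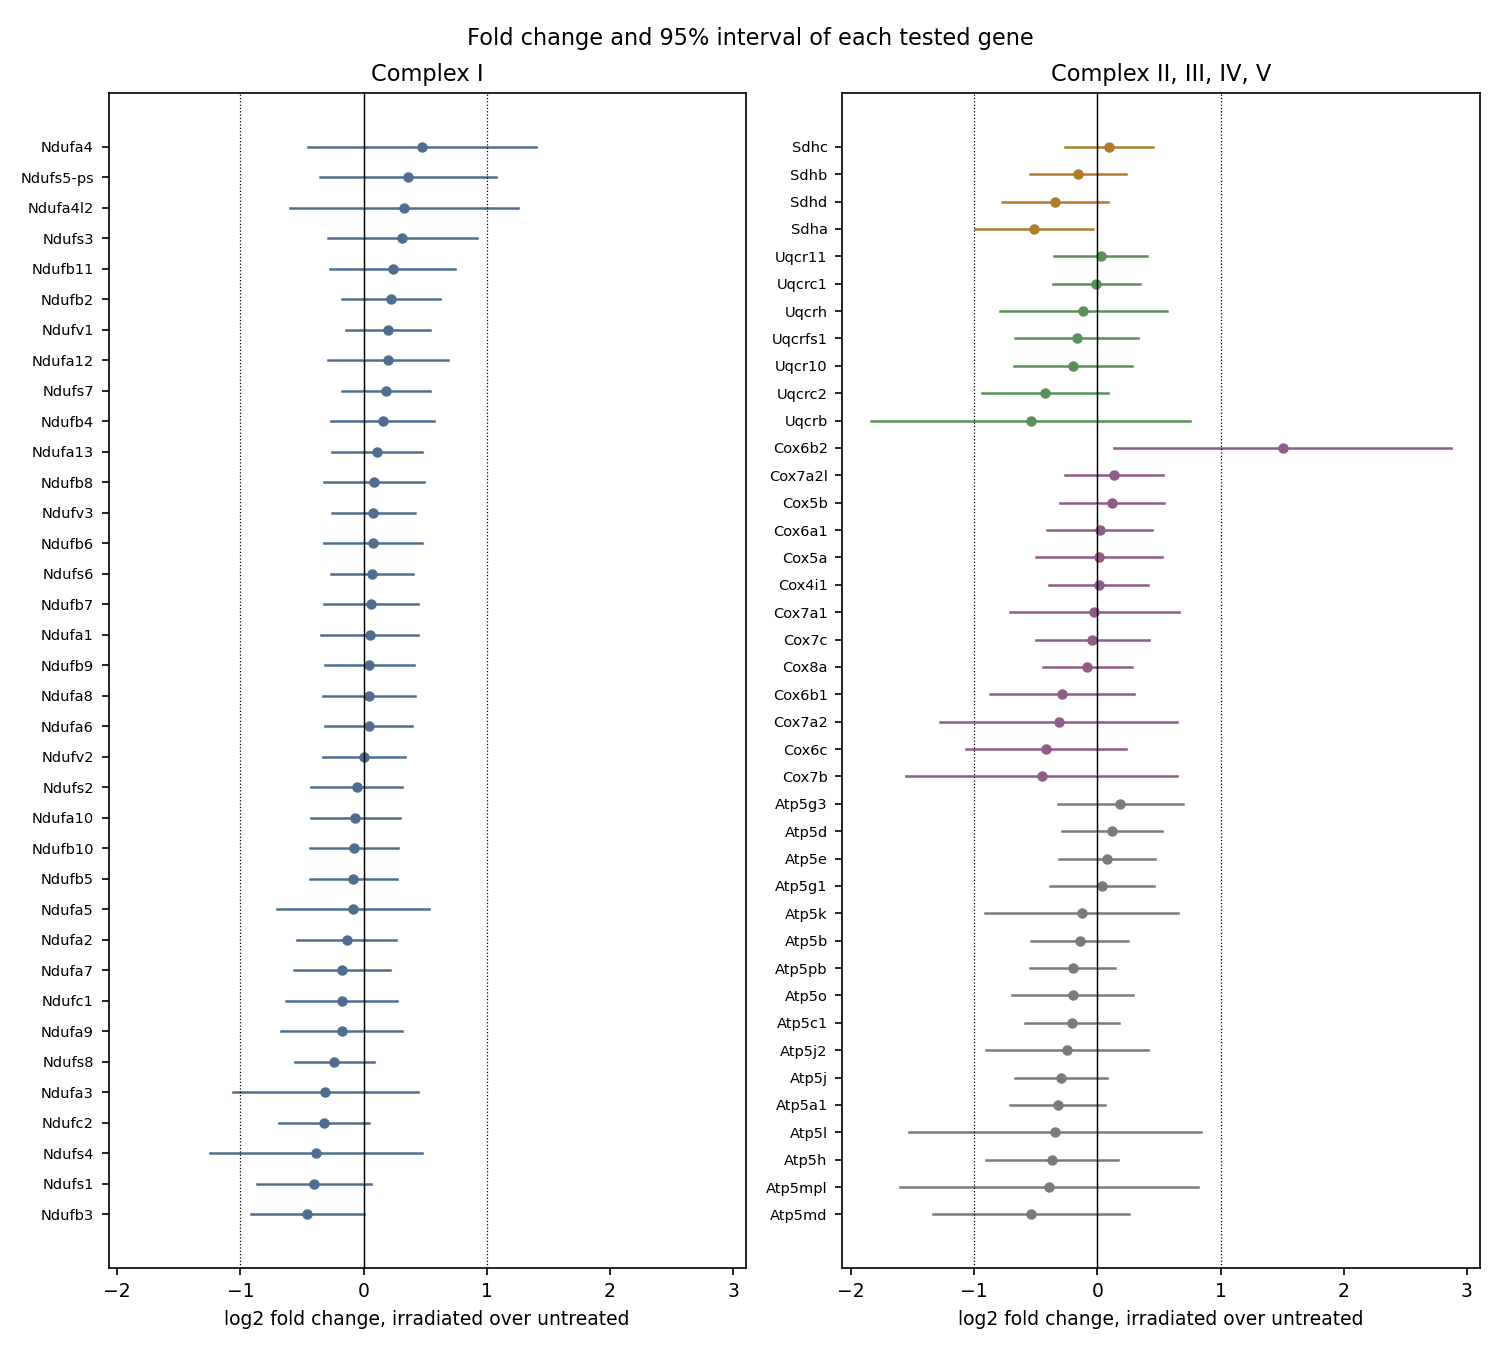
Points give the log2 fold change of irradiated over untreated libraries for each of the 76 tested genes, bars its 95% interval, dotted lines a 2-fold difference, and colours the complexes (blue I, ochre II, green III, purple IV, grey V). Most intervals cross 0 and stay inside the dotted lines; those of Sdha and Cox6b2 do not reach 0, and Cox6b2, at 1.50, has the widest reach.

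Groups did not overlap for 3 of the 76 tested genes, all with lower values in irradiated libraries, where 5.14% of all tested genes had no overlap. These were Ndufb3, Ndufs8 and Uqcrc2, with adjusted p of 0.478, 0.642 and 0.579 by edgeR. Cox8b, which did not pass the filter on low counts, also had no overlap. Without irradiated replicate 4 the count was 7 of 76, against 8.52% of all tested genes: the same 3 together with Cox6b2, Ndufv1, Sdhd and Uqcrfs1.

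Complex I takes electrons from NADH. Of its 36 genes, 21 had a log2 fold change above 0 and 15 below 0, and none was called. The 36 include Ndufa4 and its relative Ndufa4l2, described with complex IV, and Ndufs5-ps, a pseudogene by its name. Without these 3 genes, 18 lay above 0 and 15 below. Its NADH-oxidising tip had a median log2 fold change of 0.02 over 10 genes, and its ubiquinone-reducing base had -0.06 over 5 genes. The genes listed here for its membrane arm, with Ndufa9 counted among them, had a median of 0.04 over 18 genes. Without irradiated replicate 4 these medians were -0.01, 0.11 and -0.004 in the same order. The most abundant members were Ndufa13 and Ndufb9, both of the membrane arm. Ndufa13 averaged 809.9 ± 105 CPM in irradiated libraries and 751 ± 54.4 CPM in untreated libraries, and Ndufb9 averaged 611 ± 62.8 CPM in irradiated libraries and 593 ± 61.4 CPM in untreated libraries. Their log2 fold changes were 0.11 ± 0.17 and 0.05 ± 0.17 (SE).

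Ndufb3, an accessory subunit of the membrane arm, had the smallest p of complex I. It had 161, 219, 226 and 98.9 CPM in the irradiated libraries, against 259, 236, 243, 233 and 249.5 CPM in the untreated libraries. All 4 irradiated libraries lay below all 5 untreated ones, and replicate 4 was the lowest. The log2 fold change was -0.46 ± 0.22 (SE) with an adjusted p of 0.478 by edgeR, and -0.27 without irradiated replicate 4 (adjusted p = 0.590, edgeR). A stretch of its 3′ end has a near-identical match in 1 other annotated gene, so its counts are uncertain. Ndufs8, an iron-sulfur subunit of the ubiquinone-reducing base, had 236, 229, 234 and 248 CPM in the irradiated libraries, against 275, 299, 253, 284 and 283 CPM in the untreated libraries. Here irradiated replicate 4 was the highest of its group, and the groups were separated by a narrow gap. The log2 fold change was -0.24 ± 0.15 (adjusted p = 0.642, edgeR). Ndufs1, the large iron-sulfur subunit of the tip, and Ndufc2, of the membrane arm, had log2 fold changes of -0.40 ± 0.22 and -0.32 ± 0.17, both with an adjusted p of 0.559 by edgeR, and without irradiated replicate 4 they had -0.24 and -0.26.

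Complex II, succinate dehydrogenase, is the smallest complex and also a step of the citric acid cycle. Sdha carries the flavin that oxidises succinate, Sdhb holds the iron-sulfur clusters, and Sdhc and Sdhd anchor them in the membrane. Sdha had 253, 276, 306 and 135 CPM in the irradiated libraries, against 304, 302, 338, 364 and 429 CPM in the untreated libraries. Only irradiated replicate 3 reached into the untreated range, and replicate 4 was at 0.484 times the mean of the other irradiated libraries. The log2 fold change was -0.51 ± 0.22 (95% interval -0.99 to -0.03, adjusted p = 0.414, edgeR), and without irradiated replicate 4 it was -0.32 (adjusted p = 0.528, edgeR).

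The other complex II subunits had fold changes on both sides of 0. Sdhb had 323, 349, 456 and 311 CPM in the irradiated libraries, against 486, 406, 332, 385 and 406 CPM in the untreated libraries, a log2 fold change of -0.16 ± 0.18. Sdhc had 231, 226, 199 and 271 CPM in the irradiated libraries, against 178, 213, 253, 219.6 and 219 CPM in the untreated libraries, a log2 fold change of 0.10 ± 0.17. Sdhd had 109, 109, 87.3 and 147 CPM in the irradiated libraries, against 148, 185, 111, 143 and 127 CPM in the untreated libraries, a log2 fold change of -0.34 ± 0.20. Sdhd therefore showed the reverse of Sdha in replicate 4, the highest of its group. Leaving that library out left the Sdhd groups without overlap at a log2 fold change of -0.49 (adjusted p = 0.356, edgeR). All 4 complex II intervals stayed within 2-fold.

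Complex III passes electrons from ubiquinol to cytochrome c. Of its 7 genes, 1 had a log2 fold change above 0 and 6 below 0, and without irradiated replicate 4 these counts were 3 and 4. Uqcrc2, a core subunit, had 216.9, 193, 212 and 80.0 CPM in the irradiated libraries, against 236, 244, 217.0, 239 and 251 CPM in the untreated libraries. Irradiated replicates 1 and 3 lay just under the lowest untreated library, and replicate 4 far under it. The log2 fold change was -0.43 ± 0.24, and -0.20 without irradiated replicate 4. Uqcrfs1, the Rieske iron-sulfur protein, had 148, 178, 172 and 319.9 CPM in the irradiated libraries, against 199, 314, 205, 217 and 209 CPM in the untreated libraries. Its replicate 4 went the other way and was the highest of all 9 libraries. With it the log2 fold change was -0.17 ± 0.23, and without it -0.45 (adjusted p = 0.363, edgeR).

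The most abundant complex III genes were Uqcr10, a small accessory subunit, and Uqcrh, the hinge protein. Uqcr10 averaged 606 ± 184 CPM in irradiated libraries and 696 ± 66.8 CPM in untreated libraries. Uqcrh averaged 477 ± 224 CPM in irradiated libraries and 518 ± 34.3 CPM in untreated libraries. In both, irradiated replicate 4 was the lowest library, with 335 CPM of Uqcr10 and 145 CPM of Uqcrh. Without that library their log2 fold changes were 0.002 and 0.18. Uqcrb, a small matrix-side subunit, had 289, 233, 271 and 12.6 CPM in the irradiated libraries, against 325, 324, 322, 252 and 259 CPM in the untreated libraries. Only 6 Uqcrb counts were left in replicate 4, against 185 to 242 in the other irradiated libraries. A stretch of its 3′ end has near-identical matches in 3 other annotated genes.

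Complex IV, cytochrome c oxidase, reduces oxygen to water. It is the complex with tissue isoforms, where a widely expressed subunit has a partner restricted to heart and skeletal muscle (Cox6a2, Cox7a1 and Cox8b), testis (Cox6b2) or lung (Cox4i2). The widely expressed form led in every pair. Cox6a1 averaged 1584 ± 383 CPM in irradiated libraries and 1562 ± 136 CPM in untreated libraries, with a log2 fold change of 0.02 ± 0.20, and -0.16 without irradiated replicate 4. Cox4i1 averaged 1449 ± 130.1 CPM in irradiated libraries and 1439.9 ± 226 CPM in untreated libraries, with a log2 fold change of 0.01 ± 0.19 (95% interval -0.39 to 0.41). Cox8a averaged 991 ± 89.9 CPM in irradiated libraries and 1050.2 ± 58.9 CPM in untreated libraries. Per base of transcript, Cox4i1 over Cox4i2 was 135 in irradiated libraries and 149 in untreated libraries. Cox6b1 over Cox6b2 was 28.7 in irradiated libraries and 99.6 in untreated libraries, and Cox8a over Cox8b was 53.6 in irradiated libraries and 133 in untreated libraries. Cox7a2 over Cox7a1 was 12.8 in irradiated libraries and 15.2 in untreated libraries. Cox6a1 over Cox6a2 was 1784 in irradiated libraries, on 4 Cox6a2 counts, and 147 in untreated libraries, where 45 of 57 Cox6a2 counts lay in untreated replicate 1; without that library it was 468. MARS-seq counts transcript ends, so the ratios without division by length are given too. In untreated libraries they were 156 for Cox4i, 105 for Cox6b, 203 for Cox8, 25.5 for Cox7a and 123 for Cox6a. In irradiated libraries they were 141 for Cox4i, 30.4 for Cox6b, 81.8 for Cox8, 21.4 for Cox7a and 1498 for Cox6a. No test was run on these ratios.

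The promoters of the Cox6 isoforms and of Sdha are shown because these genes span the highest level, the lowest adjusted p and a widely expressed gene beside its restricted partner. Each is the RefSeq stretch of GRCm38.p6 that ends just before the outermost annotated start, read 5′ to 3′ on the minus strand, on which all 4 genes lie. Capitals mark matches, on either strand, to the motif of NRF1, a regulator of nuclear respiratory genes, which reads GCGC, any base, then TGCGC. The motifs of YY1 (AANATGGC) and of ETS factors (CCGGAAGT) were searched as well and had no match in these stretches.
Sdha, chr13:74350281-74350480: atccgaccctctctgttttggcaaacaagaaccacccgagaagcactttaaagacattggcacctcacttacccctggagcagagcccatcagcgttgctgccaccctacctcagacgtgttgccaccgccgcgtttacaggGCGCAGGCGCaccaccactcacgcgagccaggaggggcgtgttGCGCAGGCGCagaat
Cox6a1, chr5:115348982-115349181: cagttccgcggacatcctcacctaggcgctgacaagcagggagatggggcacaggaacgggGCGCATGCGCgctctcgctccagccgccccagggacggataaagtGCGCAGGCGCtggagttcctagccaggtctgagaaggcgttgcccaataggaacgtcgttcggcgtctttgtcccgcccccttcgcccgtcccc
Cox6b1, chr7:30626152-30626351: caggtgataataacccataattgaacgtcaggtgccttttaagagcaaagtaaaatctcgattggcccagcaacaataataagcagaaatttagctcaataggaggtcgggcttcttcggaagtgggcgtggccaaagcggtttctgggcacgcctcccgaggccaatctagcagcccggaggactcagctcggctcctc
Cox6b2, chr7:4753095-4753294: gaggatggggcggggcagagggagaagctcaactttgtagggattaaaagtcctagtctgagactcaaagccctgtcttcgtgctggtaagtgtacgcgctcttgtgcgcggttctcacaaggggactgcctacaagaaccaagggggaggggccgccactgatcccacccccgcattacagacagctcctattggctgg
Sdha and Cox6a1 hold 2 NRF1 matches each, and the Cox6b1 and Cox6b2 stretches hold none. RefSeq had promoter windows for 65 of the 80 genes, 70 windows in all, each running from 250 bases before to 50 bases after a start. NRF1 matches lay in 22.9% of these windows, against 4.60% of all 32851 promoter windows. YY1 matches lay in 24.3% against 6.05%, ETS matches in 7.14% against 3.89%, and SP1 matches (GGGCGG) in 40% against 35.7%. The motifs do not overlap one another in the printed stretches, and a match is a description of letters, not of binding.

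Cox6b2 had the largest fold change of the 76 tested genes, on few counts. It had 37.4, 15.5, 28.0 and 4.21 CPM in the irradiated libraries, against 13.6, 14.8, 1.23, 6.58 and 1.39 CPM in the untreated libraries. These values rest on 66 counts in the irradiated group and 30 in the untreated group. Irradiated replicates 1 to 3 lay above every untreated library, and replicate 4, with 2 counts, lay among the low untreated ones. The log2 fold change was 1.50 ± 0.63 (95% interval 0.14 to 2.87, adjusted p = 0.392, edgeR), and 1.78 without irradiated replicate 4 (adjusted p = 0.255, edgeR). Its partner Cox6b1 averaged 647 ± 259 CPM in irradiated libraries and 792 ± 75.3 CPM in untreated libraries, far above Cox6b2 in both groups, and its log2 fold change without irradiated replicate 4 was -0.03.

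The muscle isoforms did not share a pattern. Cox8b had 14.04, 9.33, 14.6 and 10.5 CPM in the irradiated libraries, against 8.38, 2.96, 2.47, 7.89 and 4.18 CPM in the untreated libraries. All irradiated values lay above all untreated ones, on 36 counts in the irradiated group and 21 in the untreated group, and the gene did not pass the filter on low counts. Without that filter its log2 fold change was 1.197 (unadjusted p = 0.0295, adjusted p = 0.383, edgeR). Cox7a1 averaged 15.3 ± 3.91 CPM in irradiated libraries and 16.1 ± 3.04 CPM in untreated libraries. Cox6a2 had 0, 3, 1 and 0 counts in the irradiated libraries, against 45, 6, 6, 0 and 0 counts in the untreated libraries. Most of its counts lay in untreated replicate 1. Siglech, a receptor of plasmacytoid dendritic cells, was at 0 in all irradiated libraries and had 156, 6, 9, 0 and 0 counts in the untreated libraries. Markers of that cell type, a list picked after these values were seen with 5 of 6 listed, summed to 121 to 345 CPM in irradiated libraries and 58.5 to 1087 CPM in untreated libraries. Within this list, Cd300c and Ly6c2 were also highest in untreated replicate 1, at 38.7 and 328 CPM. Klk1 and Pacsin1 were not, and peaked in untreated replicate 2 at 975 and 13.3 CPM. Klk1 had 93.6 to 333 CPM in irradiated libraries, above untreated replicates 4 and 5 at 67.1 and 36.2 CPM. The part of these markers in the Cox6a2 values was not tested. Skeletal and heart muscle markers, 6 of 7 listed, summed to 121 to 211 CPM in irradiated libraries and 88.1 to 132 CPM in untreated libraries, and their part in the Cox8b values was not tested. Cox4i2 had 10.3 ± 2.83 CPM in irradiated libraries and 9.24 ± 5.04 CPM in untreated libraries.

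Ndufa4, which carries a complex I name but is now placed in complex IV, and Ndufa4l2, its hypoxia-inducible relative, were close in level. Ndufa4 had 54.6, 22.8, 69.4 and 124 CPM in the irradiated libraries, against 42.9, 74.1, 49.3, 48.7 and 22.3 CPM in the untreated libraries. Ndufa4l2 had 34.3, 48.7, 15.7 and 90.5 CPM in the irradiated libraries, against 36.6, 22.2, 60.4, 35.5 and 26.5 CPM in the untreated libraries. For both genes irradiated replicate 4 was the highest of all 9 libraries and the remaining values overlapped. Log2 fold changes were 0.47 ± 0.42 for Ndufa4 and 0.33 ± 0.43 for Ndufa4l2, and without that library 0.04 and -0.14. Cox6c at -0.41 ± 0.30 and Cox7b at -0.45 ± 0.49 both had their lowest value in irradiated replicate 4, and without it they were at -0.13 and -0.10.

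**Figure D3:**
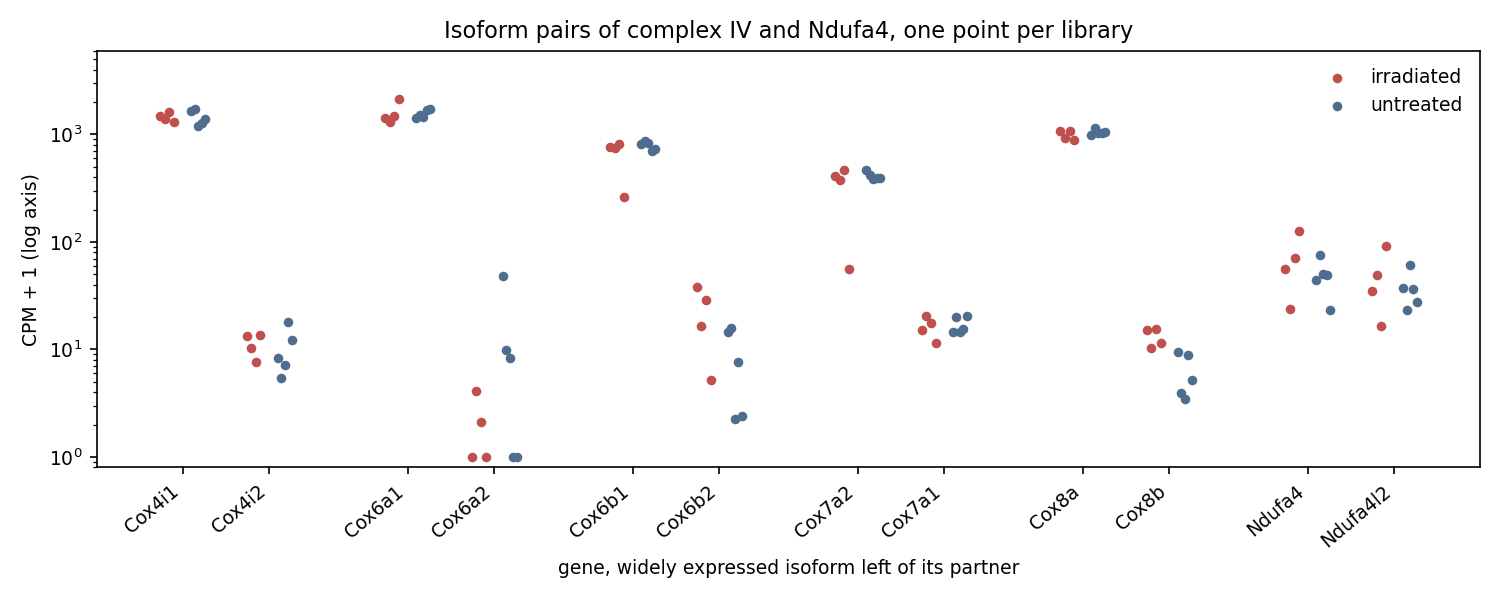
Points give CPM + 1 on a log axis for each library (irradiated red, left of untreated blue), with each widely expressed gene placed left of its restricted partner. The widely expressed complex IV genes lie far above their partners, with untreated means from 409 CPM for Cox7a2 to 1562 CPM for Cox6a1, against 5.18 CPM for Cox8b to 16.1 CPM for Cox7a1; Ndufa4 and Ndufa4l2 lie at similar levels.

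Complex V makes ATP in a catalytic head that is held by a peripheral stalk. A ring of c subunits in the membrane turns the central stalk inside this head. Of 16 tested genes, 4 had a log2 fold change above 0 and 12 below 0, where 52.5% of all tested genes lay below 0. The counts were the same without irradiated replicate 4, but the genes were not. Atp5g1 and Atp5g3 moved below 0, to -0.09 and -0.08, and Atp5j2 and Atp5k moved above 0, to 0.04 and 0.18. The median was -0.14 over 5 genes of the head and central stalk, -0.25 over 4 genes of the peripheral stalk and -0.24 over 7 genes of the membrane part, and without irradiated replicate 4 these medians were -0.04, -0.18 and -0.08 in the same order. Peripheral stalk genes summed to 1718 ± 318 CPM in irradiated libraries and 2093 ± 254 CPM in untreated libraries, with 1875 ± 64.1 CPM over irradiated replicates 1 to 3. Atp5b, the catalytic beta subunit, averaged 1317 ± 202 CPM in irradiated libraries and 1457 ± 103 CPM in untreated libraries. Atp5d, a central stalk subunit, averaged 1093 ± 196 CPM in irradiated libraries and 1005 ± 123 CPM in untreated libraries. These are the most abundant genes of complex V, and their log2 fold changes were -0.14 ± 0.18 and 0.12 ± 0.19, and -0.04 and 0.00 without irradiated replicate 4.

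Atp5a1, the alpha subunit of the head, had 396, 485, 458 and 417 CPM in the irradiated libraries, against 648, 570.4, 407, 572 and 552 CPM in the untreated libraries. Without untreated replicate 3 the groups would be apart; with it they overlap. The log2 fold change was -0.32 ± 0.18 (adjusted p = 0.580, edgeR), the smallest p of the complex. Atp5j, of the peripheral stalk, had -0.30 ± 0.17, and Atp5h, of the same stalk, had -0.37 ± 0.25, and without irradiated replicate 4 they had -0.29 and -0.13. Atp5md, a small membrane subunit, had 142, 80.9, 88.5 and 42.1 CPM in the irradiated libraries, against 169.6, 187, 55.5, 122 and 112 CPM in the untreated libraries, a log2 fold change of -0.54 ± 0.36, and -0.33 without irradiated replicate 4. The genes for the c subunit ring differed in level: Atp5g3 averaged 758 ± 267 CPM in irradiated libraries and 665 ± 126 CPM in untreated libraries, Atp5g1 averaged 159 ± 28.4 CPM in irradiated libraries and 154 ± 32.9 CPM in untreated libraries, and Atp5g2 averaged 10.3 ± 3.23 CPM in irradiated libraries and 8.87 ± 6.14 CPM in untreated libraries. These CPM are not corrected for length, since MARS-seq counts transcript ends. Atp5l, the g subunit, was listed at only 9.94 ± 6.22 CPM in irradiated libraries and 12.3 ± 7.96 CPM in untreated libraries. A stretch of its 3′ end has near-identical matches in 12 other annotated genes.

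Such matches, which could lie anywhere in the transcripts of the other gene, limit several values. Of the 80 genes, 78 were matched in GENCODE. Of the 80, 21 had at least 60 aligned bases of their last 300 at 95% identity or more in another annotated gene. Besides Ndufb3, Uqcrb and Atp5l, these included Cox6a1, Cox6c, Cox5a, Uqcrh, Atp5h, Atp5j, Atp5g1 and Atp5g2, so their counts are uncertain too. Exons of 25 genes overlapped a gene on the opposite strand, and 4 overlapped a gene on the same strand. Whether counting used strand, and how reads with several matches were treated, is not given in the sources used here.

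Irradiated replicate 4 scattered the oxidative phosphorylation genes in both directions. Its log2(CPM + 2) was compared with the mean log2(CPM + 2) of the other 3 irradiated libraries. On that scale 19 of the 76 genes were more than 2-fold lower and 4 more than 2-fold higher in it. Together these were 30.3%, against 23.7% of all tested genes. In the other 8 libraries, set against their own groups in the same way, 1.32% to 10.5% of the 76 genes lay beyond 2-fold. It held the lowest value of all 9 libraries for 40 genes, or 52.6%, against 27.3% of all tested genes, and the highest for 21 genes, or 27.6%, against 23.5%. The low genes were spread over the complexes, with 4 of complex I, 1 of II, 4 of III, 5 of IV and 5 of V more than 2-fold lower.

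Subunits of 1 complex parted ways in this library. Uqcrb was at 12.6 CPM, against a mean of 264 CPM in the other irradiated libraries, and Uqcrfs1 of the same complex was at 319.9 CPM, against 166 CPM. Cox7a2 was at 54.7 CPM, against 418 CPM, and Cox5a was at 688 CPM, against 337 CPM. Atp5mpl was at 18.9 CPM, against 263 CPM, and Atp5g3 was at 1149 CPM, against 628 CPM. The library had the fewest counts of the 9. Across all 8828 genes with a matched transcript, its deviation had a Spearman correlation with transcript GC content of 0.44, and across 73 of the 76 genes it was 0.21. These points share a single library, and genes are not independent replicates. Transcripts lowest in this library had a median GC content of 50.3% over 39 genes, those highest in it had 51.5% over 21 genes, and the others had 55.4% over 13 genes.

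**Figure D4:**
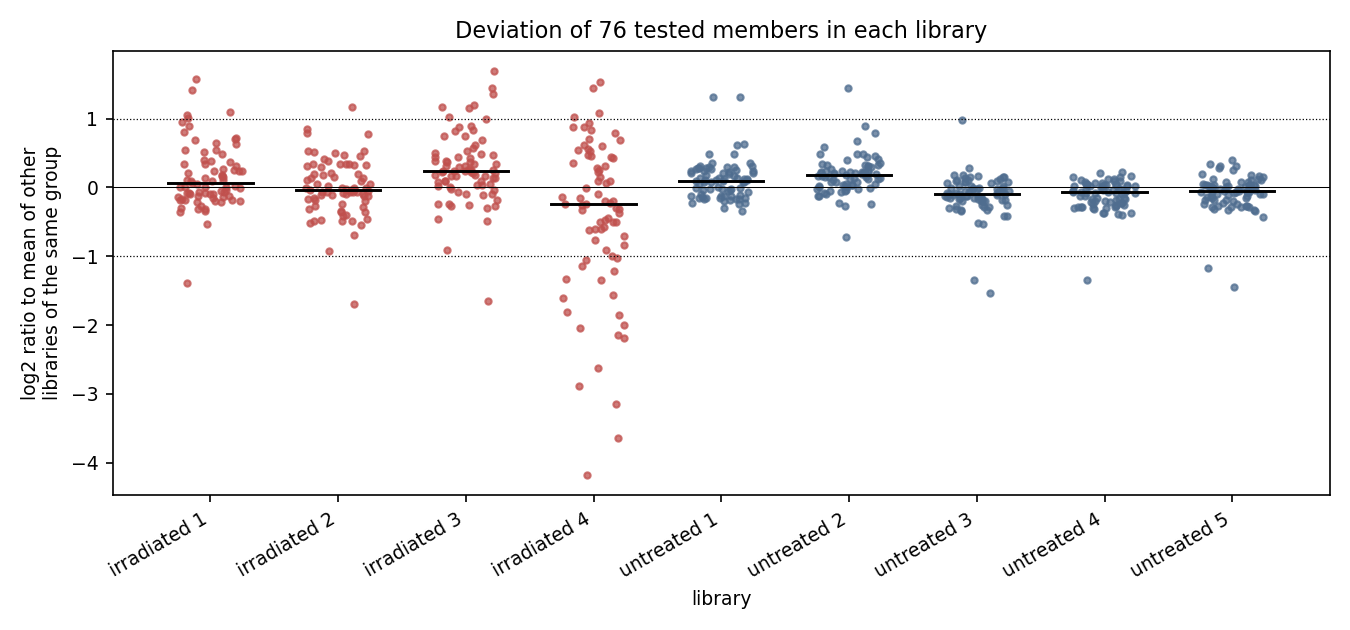
Each point is 1 of the 76 tested genes. It gives log2(CPM + 2) minus the mean log2(CPM + 2) of the other libraries of the same group. Black bars are medians and dotted lines a 2-fold difference, with irradiated libraries red and untreated libraries blue. Irradiated replicate 4 spreads from about -4 to above 1, with 30.3% of points beyond the dotted lines, and each of the other libraries has 1.32% to 10.5% beyond them.

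Genes around the respiratory chain gave 1 call, where 1.34% of all tested genes were called. Among 20 tested electron carriers and related genes, Coq10b, a coenzyme Q binding protein needed for respiration in yeast, was higher in irradiated libraries and none was lower. Coq10b had 57.7, 74.6, 52.6 and 92.6 CPM in the irradiated libraries, against 35.6, 16.3, 24.7, 31.6 and 16.7 CPM in the untreated libraries. Every irradiated library lay above every untreated one, irradiated replicate 4 highest. Its level averaged 69.4 ± 18.1 CPM in irradiated libraries and 24.97 ± 8.65 CPM in untreated libraries, a log2 fold change of 1.44 ± 0.28 (adjusted p = 0.0198, edgeR). The call was lost in 4 of 9 fits that left out 1 library, with adjusted p of 0.0554 without irradiated replicate 1, 0.0801 without irradiated replicate 2, 0.0598 without untreated replicate 3 and 0.0539 without untreated replicate 5. A stretch of its 3′ end has near-identical matches in 2 other annotated genes, and its exons overlap a gene on the opposite strand. Etfdh, which passes electrons from fatty acid oxidation to ubiquinone, had the next smallest p of that list, with a log2 fold change of -0.51 ± 0.33, and -0.24 without irradiated replicate 4.

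The other lists had no call, against the 1.34% of all tested genes. Respiratory complex assembly factors had a median log2 fold change of -0.10 over 33 tested genes, 9 above 0 and 24 below. The smallest p among them was that of Foxred1, a complex I assembly factor, at -0.58 ± 0.31 (adjusted p = 0.548, edgeR), and Ndufaf8, another complex I factor, had 0.29 ± 0.17. Citric acid cycle and pyruvate dehydrogenase genes had -0.16 over 17 genes, 3 above 0 and 14 below, and their smallest p was that of Suclg1, a succinyl-CoA ligase subunit, at -0.42 ± 0.18 (adjusted p = 0.395, edgeR). Idh3a, the catalytic subunit of isocitrate dehydrogenase, had -0.43 ± 0.19. Mitochondrial ribosomal protein genes had a median of -0.10 over 64 genes, with Mrpl18 at -0.53 ± 0.19 (adjusted p = 0.291, edgeR) and Mrps23 at -0.47 ± 0.20. Cytosolic ribosomal protein genes had -0.08 over 74 genes, with Rpl7l1 at -0.56 ± 0.28 and Rpl4 at -0.39 ± 0.22. Regulators of mitochondrial biogenesis had -0.08 over 9 genes. Among the regulators, Nrf1 averaged 15.7 ± 2.78 CPM in irradiated libraries and 24.7 ± 9.15 CPM in untreated libraries, a log2 fold change of -0.64 ± 0.34 (adjusted p = 0.553, edgeR). Esrra, an orphan nuclear receptor that drives respiratory genes, had 0.32 ± 0.17. Glycolysis genes had a median of 0.03 over 11 genes. The glucose transporter Slc2a1 had 145, 195, 233 and 250.4 CPM in the irradiated libraries, against 87.9, 81.5, 109, 149 and 163 CPM in the untreated libraries, with a log2 fold change of 0.80 ± 0.24 (adjusted p = 0.159, edgeR). Irradiated replicate 1 lay inside the untreated range. Eno1, an enolase, averaged 70.1 ± 10.7 CPM in irradiated libraries and 113 ± 24.5 CPM in untreated libraries, with a log2 fold change of -0.69 ± 0.21 (adjusted p = 0.174, edgeR). Without irradiated replicate 4 these lists again had no call, with medians of -0.06 for assembly factors, -0.09 for the citric acid cycle and -0.10 for glycolysis. No symbol searched for subunits encoded in mitochondrial DNA was among the listed genes, so these subunits were not analysed here.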

How the data were processed

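Thymic tuft cells were profiled in 4 libraries from irradiated and 5 libraries from untreated mice. Tools named without roles in the submitters' processing notes are STAR 2.5.2b, HTSeq, DESeq2, cutadapt and bcl2fastq, with the build mm10. Per the file headers, the deposited raw columns hold counts per gene. The deposited normalized columns hold signal per gene, and the deposited regularized columns hold log2 values; neither was used in tests. The authors' deposited comparison gives p-values and a log2 fold change with untreated on top. Whether molecular identifiers were collapsed is not stated in any label or header.

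The counts went into edgeR 4.0.16 (R 4.3.3). Its filterByExpr (minimum count 10) left 8934 genes, TMM scaled the libraries, and the robust quasi-likelihood F test gave p-values, adjusted by Benjamini-Hochberg across these genes at 0.05. CPM are TMM-scaled. Standard errors are the log2 fold change over the root of F. The code was tested on simulated data. Transcripts and overlaps came from GENCODE for mm10 (GRCm38), promoters from RefSeq. The members and lists were chosen with earlier results of these data known. Named genes were those called, the 2 most abundant and the up to 4 with the smallest p in each complex, all of complex II and the isoform pairs. In the other lists they were called genes and the 2 with the smallest p. Some genes were named for irradiated replicate 4, for groups that did not overlap, for 3′ end matches or for the c subunit ring. They were chosen after their values were seen. Alternatives were other scalings and filters, DESeq2 1.42.0, limma 3.58.1 voom weights, a replicate block, thinned counts, each library left out in turn and a list of strict subunits. Depth limits precision: 1 count equals 1.04 to 2.10 CPM.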

Additional observations from a re-analysis of the deposited data

Results flagged for a closer look

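Named genes and the sums by complex gave 40 items. Their 80 groups of libraries were examined for a single value far from the others. Dixon's criterion at the 95% level was used, and 4 groups stood out. Chance gives about 1 in 20 such groups. Atp5h, a peripheral stalk subunit of ATP synthase, had 292.5 CPM in irradiated replicate 4, where the other 3 irradiated libraries had 713 to 763 CPM. Cox6b1, of complex IV, had 260.9 CPM in the same library, where the other 3 had 750.5 to 813 CPM. Cox6a2, the muscle isoform of complex IV, had 47.1 CPM in untreated replicate 1, where the other 4 untreated libraries had 0 to 8.89 CPM. Uqcrfs1, the Rieske protein of complex III, had 314.1 CPM in untreated replicate 2, where the other 4 had 199 to 217 CPM.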

How the results depend on the processing

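The counts of 0 higher and 0 lower oxidative phosphorylation genes held in all 19 other settings. Among these settings, the list of strict subunits reused the main fit and could give no other count. The smallest adjusted p of any of these genes over the settings was 0.0883 (Cox6b2, limma-voom). Over all genes, 120 were called by edgeR and 284 by the DESeq2 Wald test, and leaving out 1 library gave 52 to 124. The median log2 fold change of complex II was -0.35 with counts thinned to the smallest library, against -0.25. Leaving out 1 library in turn moved the medians between -0.01 and 0.07 for complex I, -0.33 and -0.20 for II, -0.28 and -0.10 for III, -0.08 and 0.02 for IV, and -0.26 and -0.08 for V. Some fold changes crossed 0, none of them called. Upper-quartile scaling gave -0.026 for Cox4i1 and -0.027 for Cox6a1; limma-voom gave -0.17 for Cox6a1, 0.17 for Cox7a1, -0.15 for Ndufa4, -0.035 for Ndufa4l2 and 0.0030 for Uqcrh; thinning gave -0.017 for Cox4i1. Leaving out both untreated replicate 1 and irradiated replicate 4, a setting chosen after seeing the data, gave -0.056 for Atp5d, -0.19 for Cox6a1, 0.039 for Cox7a1, 0.083 for Cox7a2, -0.14 for Ndufa4l2, -0.046 for Sdhc, 0.0198 for Uqcr10 and 0.15 for Uqcrh. Leaving out 1 library gave ranges of -0.054 to 0.071 for Cox4i1, -0.16 to 0.12 for Cox6a1, -0.17 to 0.093 for Cox7a1, -0.52 to 0.031 for Cox7a2, -0.14 to 0.65 for Ndufa4l2, -0.016 to 0.10 for Ndufb9, -0.30 to 0.0019 for Uqcr10 and -0.28 to 0.18 for Uqcrh. The cause was not tested. With the replicate number as a block 0 of these genes were called and Cox7a1 had 0.0091. The deviations of same-numbered libraries correlated at 0.07, -0.01, -0.12 and 0.14. Such values cannot decide whether the numbers pair the samples, since groups are small and the labels do not say what the numbers mean. Coq10b lost its call under the block (adjusted p = 0.0746, edgeR) and with thinned counts (adjusted p = 0.100, edgeR); its adjusted p ran from 0.0013 to 0.100 over all settings.

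Depth sets the limit for the restricted isoforms, where Cox6b2 rested on 66 counts in irradiated and 30 in untreated libraries.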
